A study of Mus musculus with 4 samples.

Results

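The expression of 6 transcription factors of the myeloid programme was measured in single mouse T-cell progenitors: Spi1, which encodes PU.1, the C/EBP family members Cebpa, Cebpb and Cebpe, and Irf8 and Gfi1. They were taken by symbol from the 31053 genes of the files, and each symbol matched 1 row. The study compared bone-marrow progenitors of B6.Bcl2 transgenic mice, 8 to 10 weeks old, that carried a retroviral MSCV-Runx1-mCherry vector or MSCV-empty-mCherry. It also compared progenitors of B6.Cas9;Bcl2 transgenic mice that carried E42-gRunx1-hNGFR with E42-gRunx3-mTurquoise vectors (3 guide pairs per gene) or the matching control vectors, whose guide targets luciferase. All cells grew on OP9-Dll1, a stromal line that presents a Notch ligand, with IL-7 and Flt3-ligand, and received their vectors on day 2. Lineage-negative, CD45+ cells carrying the vector markers were sorted on day 4 or 6 (Runx1 overexpression) or on day 5 or 8 (double knockout), and equal numbers from each culture were pooled. Per the labels, cells of experiment 1 had been cultured for 4 to 5 days and those of experiment 2 for 4 to 8 days. All groups thus share a Bcl2 transgene, the stromal line and a retroviral vector, and the knockout cultures and their controls also share Cas9.

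Each culture was marked with a hashtag, an antibody-borne DNA barcode. The hashtag columns name no condition, so the 8 tags of an experiment are 8 samples of unknown treatment and day, numbered by column, and the tag numbers do not match between experiments. No group was therefore compared with a control and no test was run. Whether tags came from separate animals is not given. Intervals are exact 95% intervals that cover counting error only. Of 9332 cells kept in experiment 1, 8797 took a tag, with 221139979 unique molecular identifiers (UMIs, 1 per captured transcript molecule) and 691 to 1291 cells per tag. In experiment 2, 8335 of 10214 did, with 232564152 UMIs and 855 to 1312 cells per tag. The libraries shared 39 barcodes, 28 of them among called cells of both. Cells were clustered with the 6 genes left out, giving 13 clusters in experiment 1 and 17 in experiment 2. The labels describe early, Kit-high double-negative T progenitors, yet 637 cells of experiment 1 and 494 of experiment 2 fell in clusters named as myeloid-like. Experiment 2 also held 82 B-lineage-like and 207 stromal-like cells. A further 784 cells of experiment 2 formed an unnamed cluster with myeloid genes, described below, and with it the count was 1278 cells (15.3%).

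PU.1 is an Ets-family factor that drives myeloid development and is also active in the earliest T progenitors, where it is switched off as cells commit to the T lineage. C/EBP alpha starts granulocyte and monocyte differentiation, C/EBP beta acts in macrophages and in emergency granulopoiesis, and C/EBP epsilon is needed for late granulocyte maturation and secondary granules. Irf8 directs monocyte and dendritic-cell fates against the neutrophil fate, and Gfi1 is a repressor that favours neutrophils and is also used in early T cells. In T-cell progenitors these genes therefore mark both an early stage of the T pathway and cells that leave it.

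In GRCm38 the genes lie at chr2:91082374-91115759 (Spi1), chr7:35119293-35121928 (Cebpa), chr2:167688915-167690432 (Cebpb), chr14:54710363-54712174 (Cebpe), chr8:120736358-120756694 (Irf8) and chr5:107716655-107725805 (Gfi1). RefSeq promoters (GRCm38.p6) were at hand for 4 of the 6 genes. The 250 bases before the gene start are shown for Cebpa, Irf8 and Gfi1, since each of these was high in another kind of cell below (granulocyte or mast-like, dendritic-like and T-lineage-like). Capitals mark matches to the motifs searched on both strands.
Cebpa, chr7:35119043-35119292, plus strand: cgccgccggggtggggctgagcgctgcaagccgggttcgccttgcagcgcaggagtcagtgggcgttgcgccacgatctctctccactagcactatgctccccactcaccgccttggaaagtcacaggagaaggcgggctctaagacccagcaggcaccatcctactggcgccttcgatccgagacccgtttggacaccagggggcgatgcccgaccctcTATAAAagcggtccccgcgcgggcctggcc
Irf8, chr8:120736108-120736357, plus strand: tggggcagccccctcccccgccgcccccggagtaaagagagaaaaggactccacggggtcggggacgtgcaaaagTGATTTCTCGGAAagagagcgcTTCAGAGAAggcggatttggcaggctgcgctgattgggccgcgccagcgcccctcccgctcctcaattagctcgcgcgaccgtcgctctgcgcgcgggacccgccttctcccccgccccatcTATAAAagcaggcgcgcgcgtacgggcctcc
Gfi1, chr5:107725806-107726055, minus strand: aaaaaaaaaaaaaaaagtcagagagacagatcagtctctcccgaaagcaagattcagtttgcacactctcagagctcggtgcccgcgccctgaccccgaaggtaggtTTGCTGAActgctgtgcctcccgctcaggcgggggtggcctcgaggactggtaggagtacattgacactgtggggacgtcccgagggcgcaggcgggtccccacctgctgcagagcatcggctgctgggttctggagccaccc
Cebpa and Irf8 each hold TATAAA, 30 and 31 bases upstream of the start, a sequence found in 12.4% of the 32851 promoters of this length. Irf8 holds 2 matches to the STAT motif TTCNNNGAA (7.02% of promoters), and the first of them overlaps a match to the Gfi1 core AAATCA on the other strand (12.4%). Gfi1 holds a match to the C/EBP motif TTGCNNAA, 143 bases upstream (9.56%). The PU.1 core GAGGAA (23.3%), the Runx core TGTGGT or TGCGGT (18.6%) and the IRF dimer motif (2.98%) had no match in these 3 windows. The 250 bases of Cebpb matched none of the motifs. Irf8 and Gfi1 each have another promoter entry inside the gene: that of Irf8 (chr8:120738389-120738638) held a Runx match 197 bases and a Gfi1 match 226 bases upstream of its own start, and that of Gfi1 matched none of the motifs. These matches describe letters in the reference and not binding in these cells.

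Spi1 was found in every tag and every cluster of both experiments, and its levels differed more between the tags of experiment 2 than between those of experiment 1. In experiment 1 its levels in tags 1 to 8 were 164, 182, 176, 165, 113, 149, 154 and 167 UMIs per 1e+06 UMIs (CPM). Tag 5 (interval 108 to 117) lay below all others, while the intervals of tags 8, 4 and 1 overlapped, as did those of tags 2 and 3. The ratio of the highest to the lowest tag was 1.62 (1.54 to 1.70), and it was 1.23 without tag 5. In experiment 2 the Spi1 levels of tags 1 to 8 were 255, 282, 185, 139, 261, 259, 78.2 and 166 CPM. Tag 2 (276 to 288) was the highest, tags 5, 6 and 1 overlapped, and tag 7 (74.7 to 81.9) was the lowest. The ratio was 3.60 (3.43 to 3.79), and without tag 7 it was 2.02.

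**Figure D1:**
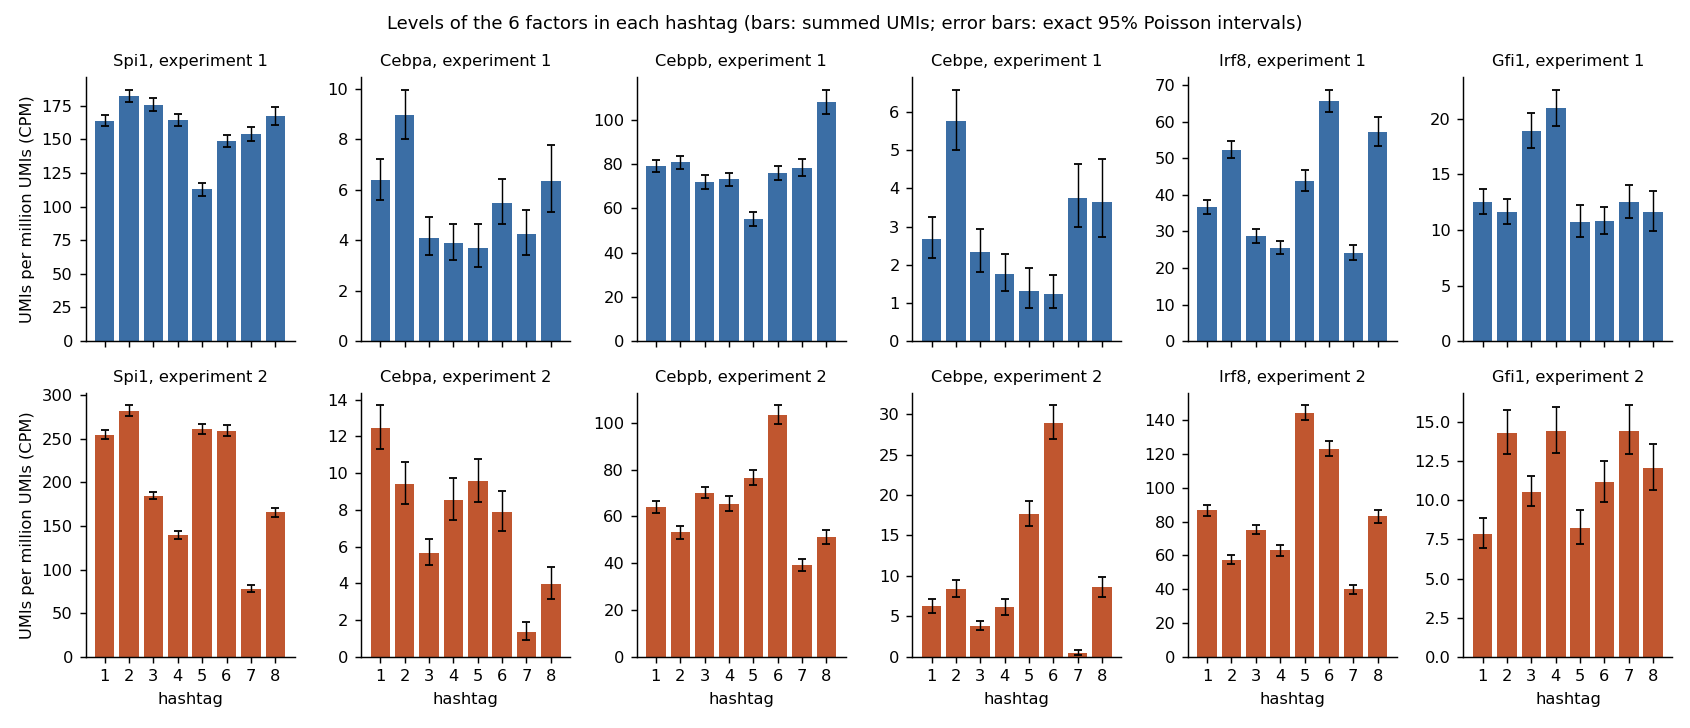
Level of each of the 6 genes (columns) in hashtags 1 to 8 of experiment 1 (top row, blue) and experiment 2 (bottom row, orange), as CPM on axes that start at 0; bars are sums over the cells of a tag and error bars exact 95% Poisson intervals. In experiment 2, tag 7 is the lowest for every gene except Gfi1, and Cebpe stands highest in tag 6 at 29.0 CPM.

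Among the C/EBP genes, Cebpb differed least between tags. It ranged from 55.1 CPM in tag 5 to 108 CPM in tag 8 of experiment 1, a ratio of 1.96 (1.82 to 2.12). The range of experiment 2 was from 39.1 CPM in tag 7 to 104 CPM in tag 6, a ratio of 2.65 (2.45 to 2.85). Cebpa stood at 6.38, 8.95, 4.11, 3.89, 3.71, 5.49, 4.24 and 6.34 CPM in tags 1 to 8 of experiment 1. Tag 2 was the highest, and its ratio to tag 5 was 2.41 (1.87 to 3.14). Without tag 2 the ratio of the highest to the lowest tag was 1.72. With each cell thinned to 5000 UMIs drawn at random, the ratio of tag 2 to tag 5 was 2.26. Tag 3 was then the lowest, which gave a highest-to-lowest ratio of 4.32. In experiment 2 Cebpa stood at 12.5, 9.42, 5.67, 8.53, 9.55, 7.89, 1.36 and 3.95 CPM. Tag 1 was the highest and tag 7 the lowest, with 32 UMIs, which gave a ratio of 9.16 (6.39 to 13.6), or 3.15 without tag 7 and 14.7 after thinning.

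Cebpe was the factor that differed most between tags. In experiment 1 its levels in tags 1 to 8 were 2.68, 5.76, 2.32, 1.75, 1.32, 1.24, 3.74 and 3.65 CPM. Tag 2 (5.01 to 6.59) lay above all others, and tags 5 and 6 were the lowest with 27 and 35 UMIs. The ratio was 4.64 (3.24 to 6.84), and 3.02 without tag 2. After thinning it was at least 10.0, a lower bound, since tag 6 then held under 3 UMIs and was set to 3. In experiment 2 the Cebpe levels were 6.24, 8.37, 3.84, 6.12, 17.7, 29.0, 0.510 and 8.58 CPM. Tag 6 (26.9 to 31.1) was followed by tag 5, and tag 7 held 12 UMIs in all. The ratio of 56.8 (32.3 to 110.4) was 7.54 without tag 7 and 34.6 without tag 6.

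Irf8 and Gfi1, which act on opposite sides of the choice between monocyte and neutrophil, had different orders of tags. Irf8 in experiment 1 stood at 36.7, 52.4, 28.6, 25.5, 43.9, 65.7, 24.2 and 57.2 CPM in tags 1 to 8. Tag 6 (62.7 to 68.8) was the highest, and tags 4 and 7 overlapped at the low end, a ratio of 2.72 (2.47 to 2.99). The Irf8 levels of experiment 2 were 86.7, 57.5, 75.1, 63.0, 144, 123, 39.9 and 83.2 CPM, highest in tag 5 and lowest in tag 7, a ratio of 3.62 (3.37 to 3.89). Gfi1 in experiment 1 stood at 12.5, 11.7, 18.9, 20.95, 10.7, 10.8, 12.5 and 11.6 CPM. Tags 3 and 4 lay above the other 6, whose intervals all overlapped, and the ratio of tag 4 to tag 5 was 1.96 (1.68 to 2.29). In experiment 2 Gfi1 stood at 7.87, 14.3, 10.6, 14.5, 8.26, 11.1, 14.4 and 12.1 CPM, and its ratio was 1.84 (1.57 to 2.15). Tags 2, 4 and 7 were the highest, with overlapping intervals, so tag 7, the lowest for the other 5 genes, was among the highest for Gfi1.

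All 6 genes passed the filter of 400 UMIs over the tags in both experiments. The highest tag exceeded the lowest by 2-fold or more for 3 of the 6 in experiment 1 (Cebpa, Cebpe and Irf8), where 15.8% of the 10244 genes tested had such a ratio. The same held for 5 of the 6 in experiment 2, all but Gfi1, where 24.5% of 10691 genes had such a ratio. Cebpb and Gfi1 lay just under the threshold in experiment 1, at 1.96 each, and passed it when the level was taken as the mean over cells (2.13 and 2.07), for a count of 5. Marker genes of granulocytes and monocytes had the same highest tag as some factors and not as others. In experiment 1 the sum of the 19 markers ran from 406 CPM in tag 4 to 1875 CPM in tag 2, the tag highest for Cebpe, Cebpa and Spi1, with 13 of the 19 highest there and Camp at 0 in some tags. Gfi1 was highest in tag 4, with the lowest sum, and Irf8 in tag 6, at 606 CPM of markers against a median of 676 CPM, while Spi1 and Cebpb were lowest in tag 5, at 745 CPM. In experiment 2 the sum ran from 287 CPM in tag 7 to 13720.3 CPM in tag 6, the tag highest for Cebpe and Cebpb, with 15 of the 19 highest there. Spi1 was highest in tag 2, whose sum of 2707 CPM was below the median of 3218 CPM, and tag 8 had 5827 CPM of markers but only 3.95 CPM of Cebpa. Stromal markers (a sum of 602 to 1189 CPM over the tags of experiment 2) and T-lineage markers (313 to 2106 CPM, highest in tags 4 and 7) differed too, and their part in the levels of the 6 factors was not tested. How far a tag holds fewer such cells, or less RNA of these factors in each cell, cannot be told apart from the sums alone, so the cells themselves were examined.

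Between the libraries, Cebpe was 3.38 times (3.09 to 3.70) and Irf8 2.06 times (2.01 to 2.11) as high in experiment 2 as in experiment 1. Spi1 stood at 161 and 207 CPM (ratio 1.29) and Cebpa at 5.57 and 7.58 CPM (1.36). Cebpb and Gfi1 were lower, with ratios of 0.864 and 0.814, and the median ratio over all 11501 genes was 0.915. Of the 6 genes, 2 were thus at least 2-fold higher in experiment 2, against 5.69% of all genes, and none was at least 2-fold lower, against 0.47%. Without the cells of other classes and the Clec4n-led cluster described next, neither ratio reached 2 (Cebpe 1.14, Irf8 1.998), and with the stricter cell filter the Irf8 ratio was 1.865. With 1 library per experiment, library, culture time and mix of cultures cannot be told apart.

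The C/EBP genes differed in how far they were restricted to the granulocyte or monocyte-like cluster that each experiment held. This cluster had 521 cells in experiment 1 (led by S100a8, S100a9 and Elane) and 333 in experiment 2 (led by Ngp, S100a9 and Camp). Spi1 reached 382 CPM (373 to 391) there in experiment 1 and 519 CPM (505 to 534) in experiment 2. Cebpb reached 176 and 223 CPM, the highest of any cluster in both, but it was also found at 159 and 113 CPM in the stromal-like clusters and at 122 CPM in the Cox4i2-led progenitor-like cluster of experiment 1. Cebpa stood at 37.1 and 33.8 CPM, and Cebpe at 22.5 (20.3 to 24.8) and 215 CPM (206 to 225). Elsewhere Cebpe was close to 0: it was at or below 2.94 CPM in every other cluster of both experiments except the mast or basophil-like cluster of experiment 1, at 50.7 CPM (42.7 to 59.9). That cluster was led by the mast-cell protease gene Mcpt1 and by Prg2, an eosinophil granule protein gene. Cebpa was high in the mast or basophil-like cells of both experiments, at 31.8 and 57.3 CPM, while Cebpb stood there at 83.2 and 109.7 CPM and Spi1 at 147 and 139 CPM. Cebpe was only 0.704 CPM in the mast or basophil-like cells of experiment 2.

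**Figure D2:**
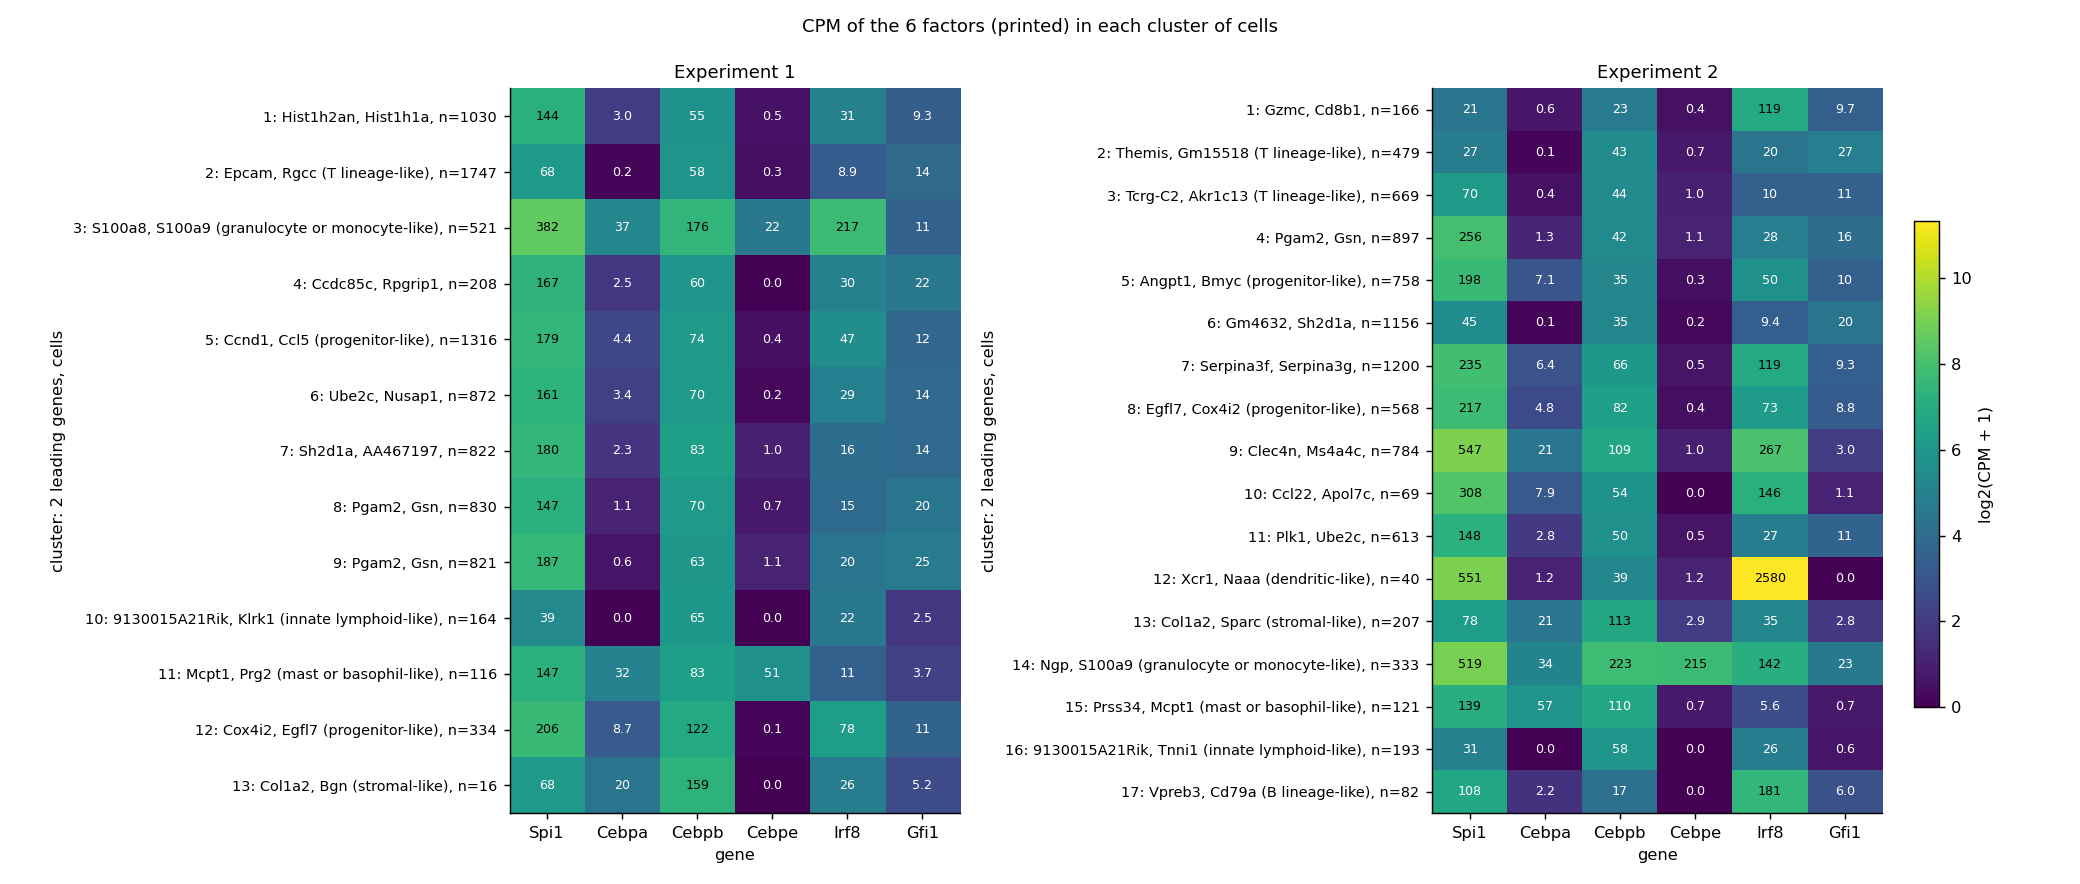
CPM of the 6 genes in each cluster of experiment 1 (left) and experiment 2 (right); rows are clusters with their 2 leading genes, any cell-class name and their number of cells, colour is log2(CPM + 1) and the printed figures are CPM. Cebpe exceeds 2.94 CPM only in the granulocyte or monocyte-like rows and the mast or basophil-like row of experiment 1, whereas Spi1 and Cebpb are found in every row, and Irf8 reaches 2579.8 CPM in 40 dendritic-like cells.

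Irf8 had another peak. In experiment 2, 40 dendritic-like cells led by Xcr1, Naaa, Plbd1 and Clec9a, genes known from cross-presenting dendritic cells, held Irf8 at 2579.8 CPM (2473 to 2689.9), and these 0.480% of cells carried 11.2% of all Irf8 UMIs. Spi1 stood at 551 CPM there, while Cebpb was at 38.7 CPM and Gfi1 had no UMI, which allows up to 3.52 CPM. A larger cluster of 784 cells, led by the macrophage and monocyte genes Clec4n, Ms4a4c, Ctsh and C1qb, took no class name under the marker rule. It had 5 dendritic markers among its 50 leading genes (Cd74, H2-Aa, H2-Eb1, H2-Ab1 and Cst3) and stayed unnamed only because none was in its top 10. It held Spi1 at 547 CPM, Irf8 at 267 CPM and Cebpa at 20.8 CPM, but Cebpe at 0.969 CPM and Gfi1 at 3.00 CPM, and it carried 24.6% of all Spi1, 29.4% of Irf8 and 25.6% of Cebpa UMIs. Its largest contribution from a single tag was 24.6% of its cells, from tag 1. B-lineage-like cells had Irf8 at 181 CPM (162 to 202), against 50.4 and 73.4 CPM in the progenitor-like clusters of the same experiment. Irf8 at 119 CPM was also found in a cluster led by Gzmc, Cd8b1 and Ifng and in another led by Serpina3f, Serpina3g and Fam26f, but Spi1 was 20.9 CPM in the former and 235 CPM in the latter.

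The share of each factor's UMIs that lay in myeloid-like clusters set the genes apart. In experiment 1 these clusters held 7.24% of the cells and 84.9% of the Cebpe UMIs (81.9 to 87.6%), 60.6% of Cebpa, 42.8% of Irf8, 20.2% of Spi1, 19.8% of Cebpb and 6.63% of Gfi1. In experiment 2 they held 5.93% of the cells and 93.2% of Cebpe (92.1 to 94.2%), 28.0% of Cebpa, 18.3% of Irf8, 16.3% of Cebpb, 12.3% of Spi1 and 8.54% of Gfi1. The interval of Gfi1 in experiment 1 (5.78 to 7.56%) included the share of the cells, which is not the share of all UMIs. Cells of the granulocyte or monocyte-like cluster were deeper, with a median of 33086 UMIs against 24753 over all called cells. Gfi1 stood at 10.96 CPM in them (9.47 to 12.6), below the 13.98 CPM over all called cells of experiment 1. Over 50% of the UMIs were in myeloid-like clusters for Cebpe and Cebpa in experiment 1 (2 genes) and only for Cebpe in experiment 2 (1 gene). The share of all genes over 50% is not given, so these counts cannot be called unusual. With finer clusters (Leiden resolution 1.0) or 3000 variable genes the Cebpa share of experiment 1 was 29.9 or 27.5%, while that of Cebpe stayed at 83.6 or 83.5%. The Irf8 share was 12.98 or 6.13% with these clusterings and that of Spi1 9.77 or 5.31%, and the clusters called myeloid-like held 6.12 or 2.26% of the cells. In experiment 2 they held 13.9% of the cells at Leiden resolution 1.0, with 43.2% of Irf8, 28.1% of Spi1 and 49.0% of Cebpa. With the top 5% of doublet scores left out they held 23.0% of the cells, with 63.97% of Irf8 and 47.0% of Spi1. The Cebpe share stayed between 83.5 and 94.5% in all of these. Cebpa passed 50% in experiment 2 too, at 53.6%, when the Clec4n-led cluster was counted as myeloid-like, a choice made after that cluster was seen. The top 10 condition that left this cluster unnamed, and so gave 28.0%, was also added after the clusters were seen.

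The tags differed in the number of granulocyte or monocyte-like cells. They also differed in the summed Cebpe level of these cells, which in experiment 1 rested on few cells. In experiment 1 they made up 6.74, 13.5, 3.39, 2.56, 4.29, 8.79, 1.59 and 6.37% of tags 1 to 8. Tag 2, the highest for Cebpe, had the largest share. Within them Cebpe stood at 26.8, 27.4, 35.6, 22.0, 20.4, 8.38, 2.30 and 16.6 CPM. Tags 1 to 5 overlapped, and tag 6 (5.47 to 12.3), which had the next largest share after tag 2, lay below them, and tag 7 held 1 Cebpe UMI. In experiment 2 the shares were 6.67, 3.51, 2.36, 2.05, 6.17, 8.57, 0.0983 and 3.63%, the last but 1 being a single cell of tag 7. Within these cells Cebpe stood at 95.6, 205, 104, 177, 324, 316 and 274 CPM in tags 1 to 6 and 8. Tags 5, 6 and 8 were the highest, with lower bounds of 236 CPM or more, and tags 5 and 6 also had large shares of such cells, whereas tag 1 had a large share at a low Cebpe level that overlapped with that of tag 3. Irf8 in the same cells was lowest in tags 6 and 8 of experiment 2, at 91.3 and 49.4 CPM, against 149 to 209 CPM in tags 1 to 5.

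When the granulocyte or monocyte-like, dendritic-like, mast or basophil-like, B-lineage-like and stromal-like cells were set aside, Cebpe did not exceed 1.43 CPM in any tag of either experiment, and its order of tags did not hold. Tag 6 of experiment 2, the highest with all cells, was then the lowest at 0.185 CPM (4 UMIs), against 0.531 CPM in tag 7, a ratio of 0.349 (0.0820 to 1.15), and tag 4 was the highest. In experiment 1 tag 2 stood at 0.198 CPM and tag 6 at 0.364 CPM. The median of Spi1 over tags was 148 CPM in experiment 1 and 213 CPM in experiment 2 (164 and 219.7 CPM with all cells), and its ratio in experiment 2 was 3.78. In experiment 1 Spi1 went from 182 to 143 CPM in tag 2 and from 149 to 116 CPM in tag 6, so that tag 3 was the highest. The Irf8 median was 23.0 CPM without these cells and 40.3 CPM with them in experiment 1, and 68.0 against 79.2 CPM in experiment 2. Cebpa had medians of 2.49 and 4.77 CPM, against 4.86 and 8.21 CPM with all cells, and in experiment 1 its extremes moved from tags 2 and 5 to tags 8 and 4. Gfi1 kept a median of 12.3 and 11.7 CPM, with tags 3 and 4 of experiment 1 still the highest at 19.5 and 21.4 CPM. Without the Clec4n-led cluster as well, the medians of experiment 2 were 172 CPM for Spi1 and 41.0 CPM for Irf8. Spi1 then stood at 178 CPM in tag 1 and 183 CPM in tag 5, and the Irf8 ratio was 6.99, with 102 CPM in tag 5 and 14.7 CPM in tag 7.

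Outside those classes, Spi1 was lower in cells that held a UMI of Bcl11b, the factor whose onset marks T-lineage commitment. The cells were thinned to 5000 UMIs each and split by their Bcl11b UMIs, and the levels were then taken from all their UMIs. In experiment 1 Spi1 stood at 147 CPM in 7350 cells with none, 75.3 CPM in 395 cells with 1 and 39.8 CPM in 210 cells with 2 or more. The same split of experiment 2 gave 216 CPM in 6392 cells, 56.1 CPM in 588 and 37.1 CPM in 432. Of the 6392 cells without Bcl11b, 761 belonged to the Clec4n-led cluster, and without that cluster Spi1 stood at 173, 53.3 and 35.7 CPM. The same order held inside every tag: cells with a Bcl11b UMI had less Spi1 than cells of the same tag without one in 8 of 8 tags of both experiments, each beyond counting error. The ratios ran from 0.251 to 0.559 in experiment 1 (median 0.394) and from 0.148 to 0.461 in experiment 2 (median 0.261, or 0.312 without the Clec4n-led cluster, again lower in 8 of 8 tags). Tags 3 and 4 of experiment 1 kept Spi1 at 73.9 and 90.6 CPM in their 144 and 142 cells with a Bcl11b UMI. The 99 such cells of tag 5 had 26.8 CPM. Some tags held few such cells, so their ratios rest on few cells. Tag 2 of experiment 1 held 16, and tags 1 and 6 of experiment 2 held 10 and 22.

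Irf8 and Cebpb were also lower in the cells with a Bcl11b UMI in 8 of 8 tags of each experiment, beyond counting error in 7 and 8 tags for Irf8 and in 7 and 6 tags for Cebpb. Irf8 went from 26.9 to 11.7 and 12.8 CPM with 0, 1 and 2 or more Bcl11b UMIs in experiment 1, and from 80.4 to 23.3 and 17.3 CPM in experiment 2. Without the Clec4n-led cluster Irf8 without a Bcl11b UMI was 55.9 CPM and stayed lower with one in 8 of 8 tags, while Cebpb was lower in only 6 of 8. Cebpa was at or below 0.824 CPM in the cells with a Bcl11b UMI of both experiments. Gfi1 went the other way, at 14.0, 17.8 and 25.2 CPM in experiment 1 and 10.5, 16.9 and 28.0 CPM in experiment 2. It was higher with a Bcl11b UMI in 7 of 8 tags of each experiment, but beyond counting error in only 2 tags of experiment 1 and 5 of experiment 2. Tag 8 of experiment 1 and tag 2 of experiment 2 were the exceptions.

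**Figure D3:**
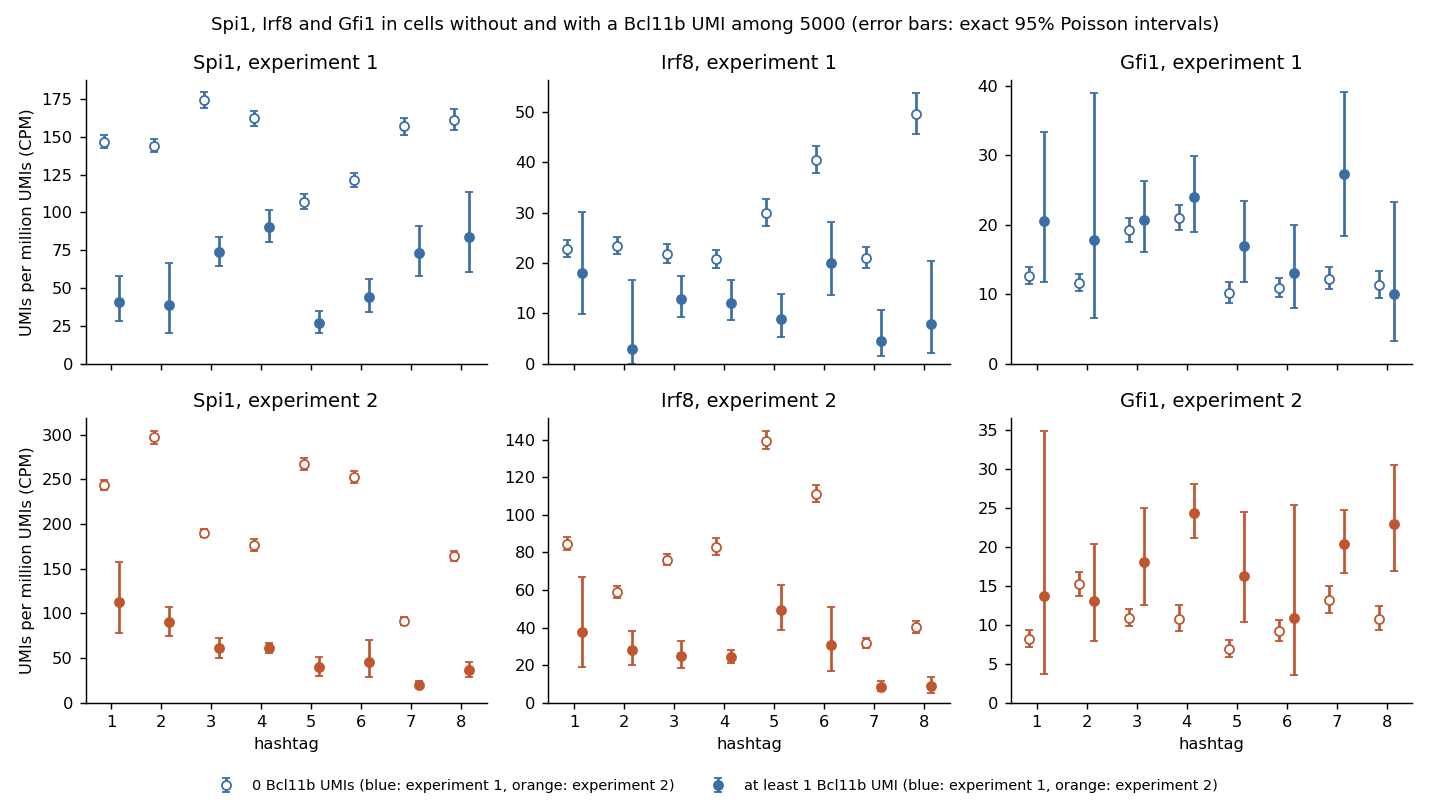
Spi1, Irf8 and Gfi1 (columns) in experiment 1 (top, blue) and experiment 2 (bottom, orange), as CPM in each hashtag, for cells without a Bcl11b UMI among 5000 (open circles) and with at least 1 (filled circles); error bars are exact 95% Poisson intervals. Granulocyte or monocyte-like, dendritic-like, mast or basophil-like, B-lineage-like and stromal-like cells are left out, and the Clec4n-led cluster is kept. Spi1 and Irf8 are lower with Bcl11b in all tags, while Gfi1 is higher in 7 of 8 tags of each experiment.

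Il2ra, the CD25 gene that comes up before Bcl11b, gave a similar split. Spi1 was lower in cells with an Il2ra UMI in 8 of 8 tags of each experiment, and so were Irf8 and Cebpa. Over all tags Spi1 stood at 179 CPM without and 103 CPM with one in experiment 1. In experiment 2 these levels were 258 and 87.5 CPM. Of the 4836 cells of experiment 2 without an Il2ra UMI, 752 belonged to the Clec4n-led cluster. Without that cluster Spi1 stood at 204 and 85.2 CPM, and Spi1, Irf8 and Cebpa were again lower in 8 of 8 tags. Gfi1 without and with an Il2ra UMI stood at 14.5 and 14.3 CPM over all tags of experiment 1. It was higher with Il2ra in 6 of 8 tags there, but beyond counting error in only 1. In experiment 2 Gfi1 was higher with Il2ra in 8 of 8 tags (9.68 and 15.04 CPM), all 8 beyond counting error. Without the Clec4n-led cluster it was again higher in 8 of 8 tags, 6 of them beyond counting error. Kit marks the earlier stages. Spi1 was 142 CPM with and without a Kit UMI in experiment 1, where the ratios within tags ran from 0.919 to 1.16. In experiment 2 it was 180.2 CPM with and 204 CPM without, lower beyond counting error in 5 of 8 tags, with ratios from 0.723 to 1.12. Without the Clec4n-led cluster, however, it was 165 CPM with and 158 CPM without, and lower in only 3 of 8 tags, 2 of them beyond counting error. Irf8 was lower with a Kit UMI in 8 of 8 tags of each experiment, with or without that cluster.

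Across clusters, low Spi1 and high Bcl11b went together in some but not in others. Spi1 stood at 67.6 CPM in the T-lineage-like cluster of experiment 1, whose Bcl11b was 36.8 CPM, and at 26.6 CPM in the experiment 2 cluster led by Themis, whose Bcl11b was 329 CPM. A pair of clusters led by Pgam2 and Gsn in experiment 1, 99.6 and 99.5% from tags 3 and 4, had as much Bcl11b (46.3 and 49.3 CPM) but kept Spi1 at 147 and 187 CPM. A cluster with the same leading genes in experiment 2, 98.7% from tags 2 and 4, had Bcl11b at 36.7 CPM and Spi1 at 256 CPM (249.9 to 263). Gfi1 was 19.9 and 25.3 CPM in the clusters of experiment 1 and 15.6 CPM in that of experiment 2, and it was highest of all in the Themis-led cluster, at 27.4 CPM. Spi1 was lowest in the Gzmc-led cluster of experiment 2 (20.9 CPM) and in the innate lymphoid-like cluster of experiment 1 (39.1 CPM). In the innate lymphoid-like cluster of experiment 2 it was 30.8 CPM, and in both of these clusters Gfi1 was also low (2.49 and 0.571 CPM).

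Most cells held few UMIs of these genes, so shares of cells are given after thinning to 5000 UMIs, which left out 195 and 185 shallower cells (11 to 32 and 11 to 48 per tag). Across tags of experiment 1 a Spi1 UMI was found in 37.1 to 52.2% of cells, and in experiment 2 in 22.0 to 66.1% (71.4 to 91.6% and 47.8 to 91.9% with all UMIs). In the granulocyte or monocyte-like clusters it was 82.1 and 91.7%, against 10.7 and 9.52% of innate lymphoid-like cells, 10.9% of the Themis-led T-lineage-like cluster and 24.8% of the 206 stromal-like cells of experiment 2. The lowest share, 5.52% (2.56 to 10.2%), was that of the 163 Gzmc-led cells of experiment 2, an upper level for RNA from other cells in that cluster. Tag 7 of experiment 2, at 22.0% (19.5 to 24.7%), lay above it. It did not lie above the 24.8% of the stromal-like cells, which had been planned as the background. None of the Gzmc-led cells held a Cebpe or Cebpa UMI, which allows a share of up to 1.84%. Median depths were 25671 UMIs in the Gzmc-led, 49959 UMIs in stromal-like, 16747 UMIs in innate lymphoid-like and 28546 UMIs in granulocyte or monocyte-like cells of that experiment.

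Inside the granulocyte or monocyte-like clusters, an Irf8 UMI was less frequent in cells with a Cebpe UMI than in cells without, though some cells held both (7 and 15). After thinning, an Irf8 UMI was present in 24.1% of the 29 cells with a Cebpe UMI (10.3 to 43.5%) and in 63.0% of the 486 without (58.5 to 67.3%) in experiment 1. In experiment 2 it was present in 10.1% of 149 cells with (5.74 to 16.1%) and 51.9% of 154 without (43.8 to 60.1%). The share was lower with Cebpe in 6 of the 7 tags that held both kinds of cell in each experiment. In tag 3 of experiment 1 it was 2 of 3 cells against 58.3%, and in tag 8 of experiment 2 it was 12.5 against 0%. In experiment 1 only tag 2 had more than 6 cells with a Cebpe UMI (15 cells). Gfi1 went with Cebpe more than with Irf8. A Gfi1 UMI was found in 2.24% of cells with an Irf8 UMI and 11.4% of those without in experiment 1, and in 2.11 and 12.98% in experiment 2. It was found in 34.5% of cells with a Cebpe UMI and 4.12% of those without in experiment 1, but in 11.4 and 7.79% in experiment 2, with overlapping intervals.

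The genes not used for that split differed as well. Cells with a Cebpe UMI and no Irf8 UMI (22 and 134 cells) had Gfi1 at 77.6 and 40.7 CPM, against 5.41 and 6.55 CPM in cells with an Irf8 UMI and no Cebpe UMI (306 and 80 cells). Elane, a primary granule protease, was 4738 against 171 CPM in experiment 1 and 3771 against 904 CPM in experiment 2. Ngp, a secondary granule gene, was 3229.9 against 8.02 CPM and 19685 against 449 CPM. Csf1r, the receptor of monocytes and macrophages, was lower in the Cebpe cells, at 12.2 against 68.1 CPM and 15.4 against 80.1 CPM. Spi1 differed less, at 480.5 and 384 CPM in experiment 1 and 551 and 528 CPM in experiment 2, with overlapping intervals in experiment 2. Cebpa and Cebpb were higher in the Cebpe cells of experiment 1 (108 against 33.6 CPM, and 248 against 177 CPM) but lower in those of experiment 2 (23.8 against 34.6 CPM, and 149 against 289 CPM).

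**Figure D4:**
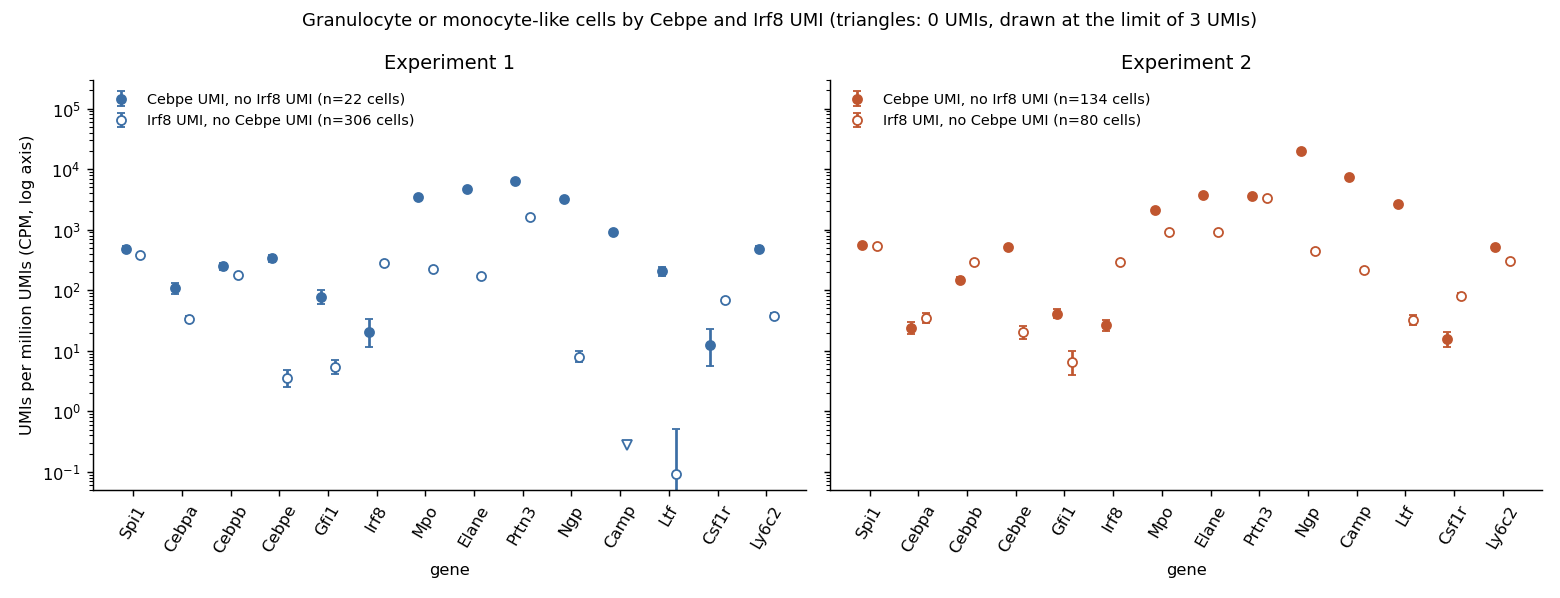
CPM (log axis) of the 6 factors and 8 other myeloid genes in granulocyte or monocyte-like cells that held a Cebpe UMI and no Irf8 UMI among 5000 (filled circles) or an Irf8 UMI and no Cebpe UMI (open circles), in experiment 1 (left) and experiment 2 (right); error bars are exact 95% Poisson intervals and the triangle marks 0 UMIs, drawn at the limit that 3 UMIs would give. Gfi1 and the granule genes from Mpo to Ltf lie higher in the Cebpe cells and Csf1r lies lower, whereas Spi1 stands at 551 and 528 CPM in experiment 2.

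The other genes of the network were read from fixed lists. Of 20 further myeloid and early lymphoid factors, 17 passed the filter in each experiment, and 10 in experiment 1 and 13 in experiment 2 had a ratio of at least 2 (medians 2.99 and 3.18), against 15.8 and 24.5% of all genes. Lmo2, a progenitor factor, lay between 25.8 and 80.4 CPM in experiment 1, and in experiment 2 it went from 11.05 CPM in tag 7 to 124 CPM in tag 6. Mef2c, a lymphoid progenitor factor, had its extremes in tags 7 and 6 of experiment 2 too (32.2 and 201 CPM). Gfi1b, the paralog of Gfi1, was highest in tag 4 of experiment 1 (20.1 CPM), as was Gfi1. Klf4, by contrast, was highest in tag 7 of experiment 2, at 31.7 CPM. Cebpg and Lyl1 differed little, with ratios of 1.14 and 1.31 in experiment 1 and 1.38 and 1.51 in experiment 2.

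The list of 14 receptor and effector genes mixed known PU.1 or C/EBP targets with receptor genes. Of the 14, 12 in experiment 1 and 14 in experiment 2 had a ratio of at least 2, with medians of 3.75 and 7.37 against 1.35 and 1.44 over all genes. Csf1r was lowest in tag 4 of experiment 1 (3.25 CPM) and in tag 7 of experiment 2 (4.46 CPM), and highest in tags 8 (25.2 CPM) and 6 (46.4 CPM). Lyz2 ran from 19.5 CPM in tag 7 to 398 CPM in tag 6 of experiment 2. Il7r, the IL-7 receptor of lymphoid cells, was highest in tag 7 of experiment 1, at 34.7 CPM, and in tag 7 of experiment 2, at 45.5 CPM. All 5 primary granule genes had a ratio of at least 2 in both experiments (medians 7.81 and 25.2), as did all secondary granule genes that passed the filter (5 and 7 of 7 listed). Of 7 dendritic genes, 4 and 5 passed, and 3 and 5 had such a ratio. The share of all genes with such a ratio was 15.8% in experiment 1 and 24.5% in experiment 2. Some listed genes passed the filter only through the tag where they were high, so their ratio of at least 2 followed from it. Such genes in experiment 1 were Camp (16.4 CPM in tag 2, median 0.069 CPM) and Csf3r (6.58 CPM in tag 7, median 0.892 CPM). Xcr1 was such a gene in experiment 2 (11.9 CPM in tag 8, median 1.30 CPM). The ratios of these genes cannot be weighed against the share of all genes. Xcr1 had 5 UMIs in experiment 1 and 533 UMIs in experiment 2, with 11.9 CPM in tag 8. Among the secondary granule genes, 7 of 7 were at least 2-fold higher in experiment 2 than in experiment 1, with a median ratio of 26.6, against 5.69% of all genes and a median of 0.915. The same held for 2 of 18 network factors (median 1.17), 2 of 14 receptor and effector genes (1.31), 1 of 5 primary granule genes (1.61) and 2 of 5 dendritic genes (1.62). Here the filter was 400 UMIs over both libraries. Cd177 (11 UMIs in experiment 1 and 597 in experiment 2), Mmp8 (58 and 606) and Xcr1 (5 and 533) passed it only through experiment 2. Their 2-fold rise thus followed from the filter and cannot be weighed against the share of all genes.

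Over the 28 clusters of at least 50 cells in both experiments, the genes whose log2(CPM + 1) followed each factor most closely among 10498 genes were named. For Spi1 they included Lst1 (Pearson r = 0.935), Ogfrl1, Lyn and Skap2. For Cebpa they were Ccl9 (0.923), Met, Il11ra1, Fgd4 and Zeb2os, and for Cebpb they were Cpne3 (0.825), Hexa, Hk3, Naip2 and G6pdx. Cebpe was followed by Mogat2 (0.923), Cldn15, Dmkn, Tmem38b and Elane. Genes that followed Irf8 included Stard5 (0.838), Lrrc4c, Ms4a4c and Cybb, and Gfi1 was followed by Tspan2 (0.842), Milr1, Plekha7, Mettl6 and Smarcd2. Among the 6 themselves the closest pairs were Cebpa with Cebpb (0.670) and Cebpa with Spi1 (0.662), and Gfi1 followed none (from -0.318 with Cebpa to 0.116 with Cebpe). The clusters come from only 2 libraries and share depth and background RNA, so these values are descriptions.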

How the data were processed

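The submitters deposited 2 single-cell libraries (10x Chromium v3), each with a matrix of raw UMI counts per gene and cell and a matrix of hashtag counts per cell, per the file headers. Per the submitters' processing notes the authors used Cell Ranger 3.0.0 and mm10 (GRCm38). Replicates were pooled before capture, so there is 1 library per experiment and no replicate test.

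Barcodes were kept from 500 detected genes upwards if mitochondrial transcripts made up less than 10% of their UMIs. A cell took the tag with the most counts where this had at least 50 counts and 3 times the next tag, which also removed cells with mixed tags. UMIs were summed per tag and given per 1e+06 UMIs (CPM), with exact 95% Poisson intervals, and ratios between tags with exact conditional intervals. Limits for 0 UMIs are those of 3 counts. Genes with at least 400 UMIs over the tags were compared, and a ratio of at least 2 was counted. Cells were clustered (scanpy 1.11.5, 2000 variable genes without the 6 factors, 30 components, 15 neighbours, Leiden resolution 0.5). A cluster took a class name where at least 3 of its 50 leading genes were markers of the class and at least 1 stood in its top 10, a condition added after the clusters were seen. Rebuilt names may differ from the study's. To compare shares, each cell was thinned to 5000 UMIs. Promoter sequences came from RefSeq tables of GRCm38.p6. Other tools were R 4.3.3, Seurat 5.3.0 (HTODemux), edgeR 4.0.16 (TMM factors only), Python 3.11.15 and scipy 1.17.1. The scripts were tested on simulated data.

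The 6 genes, gene lists and splits were chosen with earlier results of these data known. The text names the 6 genes, members of the fixed lists, and the 5 genes most like each factor over clusters (Pearson r of log2(CPM + 1), genes of at least 10 CPM in some cluster), except that some genes under this rule are not reported here. The splits by Cebpe, Irf8 and Prg2 UMIs were chosen after values were seen. Alternatives were HTODemux tags, a stricter cell filter (1000 genes, 5% mitochondrial), every deposited barcode, TMM, thinning, means over cells, other clusterings, Scrublet-type doublet scores with the top 5% left out, named classes left out, a filter of 100 UMIs, and each tag left out. Leaving out the Clec4n-led cluster, and keeping the highest and lowest tags fixed, were added after values were seen.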

Additional observations from a re-analysis of the deposited data

How the results depend on the processing

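No test was made, so the alternatives bear on counts of genes and on ratios. With the highest and lowest tags of all cells kept fixed, the Cebpe ratio fell below 1 without the other classes, but each interval included 1. Tag 6 over tag 7 of experiment 2 was 0.349 (0.0820 to 1.15), or 0.378 (0.0888 to 1.25) without the Clec4n-led cluster as well. Tag 2 over tag 6 of experiment 1 was 0.544 (0.159 to 1.71). No ratio of the other 5 factors fell below 1, though that of Cebpa in experiment 1 was 1.25, with an interval that included 1 (0.838 to 1.88). The count of factors with a ratio of at least 2 was 3 in experiment 1, 5 as means over cells, 4 with the stricter cell filter, after thinning (Gfi1 2.295) or without the other classes (Cebpb 2.04), and 2 to 3 with each tag left out (2 without tag 2); in experiment 2 it was 5 and stayed between 4 and 6 in all alternatives. The count at least 2-fold apart between experiments was 2, against 1 with the stricter cell filter, 0 without the other classes and the Clec4n-led cluster, and 1 to 2 with each tag left out (1 without tag 3, 4 or 7 of experiment 1, or tag 5 or 6 of experiment 2, where the Irf8 ratio was 1.855 to 1.968). The count with over 50% of UMIs in myeloid-like clusters was 2 in experiment 1, against 1 with Leiden resolution 1.0, 1 with 3000 variable genes and 3 with the top 5% of doublet scores left out (Irf8 50.3%). In experiment 2 it was 1, against 3 with the top 5% of doublet scores left out (Cebpa 61.8%, Irf8 64.0%) and 2 with the Clec4n-led cluster. No share over all genes stands beside these counts. The Cebpe ratio over tags of experiment 2 was 88.3 as means over cells. Without the other classes its highest and lowest tags were 4 and 6, with a ratio of 7.71, or 3.99 without the Clec4n-led cluster as well. Between experiments the Cebpe ratio was 5.05 after thinning and the Cebpa ratio 2.14 without the other classes. No paired analysis was possible because the tags carry no condition and each experiment is 1 library. Low counts limit Cebpe most: 12 UMIs in tag 7 of experiment 2 set its ratio. Granulocyte or monocyte-like cells made up 0.0983% of the cells of that tag, against 8.57% in tag 6. How far this low count followed from depth or from the mix of cells was not tested.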

Other observations

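The Cebpe of the mast or basophil-like cluster of experiment 1 lay in few of its cells. These were picked after the values were seen, by a UMI of Prg2, the gene of an eosinophil granule protein, among 5000 UMIs. The 6 cells with one held 125 of the cluster's 139 Cebpe UMIs, at 645 CPM (537 to 768), against 5.50 CPM (3.01 to 9.23) in the 110 cells without. They also held Prg3 at 3725 CPM and Epx, the eosinophil peroxidase gene, at 423 CPM, against 10.6 and 0.393 CPM. Gata2, a mast-cell and basophil factor, was lower in them, at 82.5 against 200.4 CPM. In experiment 2 none of the 120 mast or basophil-like cells held a Prg2 UMI after thinning, and Cebpe there was 0.704 CPM. In that experiment 5 granulocyte or monocyte-like cells had a Prg2 UMI, with Cebpe at 799.7 CPM (637 to 991), against 207 CPM in the other 298 cells, and with Epx at 443 CPM and Prg3 at 2601 CPM. With 6 and 5 cells, these values describe those cells only.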
